A study of Sus scrofa with 9 samples.

Results

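The potassium channel genes were taken as every gene whose symbol starts with KCN followed by a further letter, which covers pore-forming subunits and the accessory proteins that join them. This rule found 92 of the 18933 genes in the deposited table for the diet comparison and 92 of the 18992 genes in the table for the vitamin-C comparison, and it reads the symbol alone. The measurement was 5-hydroxymethylcytosine (5hmC), an oxidized form of methylated cytosine, captured with an antibody from sheared DNA and sequenced (hMeDIP-seq). Each value is a normalized count of reads over the exons of a gene, so it reports 5hmC on the gene's DNA and not the expression of the channel.

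The cells were mesenchymal stem/stromal cells (MSCs) grown from the subcutaneous abdominal fat of female domestic pigs, in 3 groups of 3 libraries. Lean-MSCs (libraries 7, 8 and 9) came from pigs on standard chow, and Obese-MSCs (libraries 1, 2 and 3) from pigs on a high-fat/high-fructose diet for 16 weeks, with no vitamin-C added in either group beyond that of the growth medium, which itself held ascorbic acid phosphate. Treated Obese-MSCs (libraries 4, 5 and 6) came from pigs on the same high-fat/high-fructose diet and received vitamin-C at 50 µg/mL for 48 h. Per the study, Obese-MSCs at the third passage were grown for another passage both in the treated and in the untreated group. Pigs entered the diets at 3 months of age. The diet comparison asks whether 5hmC differed between cells of Obese and Lean pigs. Obese pigs also had hypertension, dyslipidemia and insulin resistance per the study, and these cannot be told apart from obesity here. The vitamin-C comparison asks whether a cofactor of the TET enzymes, which make 5hmC, changed 5hmC in Obese-MSCs. The untreated Obese libraries are the same in both comparisons, and every library is from a culture expanded for weeks outside the animal.

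Potassium channels are membrane proteins that let potassium leave or enter a cell along its gradient, and they set the resting membrane potential. The class is best known from nerve, muscle, kidney and secretory cells, but stromal, vascular and immune cells also use some of its members, among them the large-conductance calcium-activated channel KCNMA1 and the inward rectifier KCNJ2. Pore-forming subunits fall into voltage-gated, calcium-activated, inward rectifier and tandem pore domain families, and accessory subunits tune their opening or bring them to the membrane.

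The summed value of all genes was between 494566 and 522269 in the libraries of the first table and between 547242 and 593846 in those of the second. The 92 members held between 0.432% and 0.470% of the signal in the Obese libraries and between 0.477% and 0.489% in the Lean libraries, beside 0.486% of the genes. The median member lay between 10.4 and 13.9 normalized counts and the median of all genes between 11.9 and 12.9 in the first table. Marker genes of MSCs (NT5E, THY1 and ENG) summed to between 94.8 and 123 in Obese and between 80.1 and 88.4 in Lean libraries, with no overlap, while sums of the endothelial, macrophage, adipocyte and neuron markers overlapped between these groups, apart from the neuron markers, which summed to between 196 and 210 in Obese and between 148 and 192 in Lean libraries. SYT1, a synaptic vesicle protein gene, made up most of the neuron sum. Genes that MSCs should lack (CD14, CD34 and PTPRC) summed to 60.6 to 71.6 in Obese and 66.9 to 89.4 in Lean libraries, with overlap. Of these, CD14 was listed at 0 in all Lean libraries and between 0.650 and 4.49 in Obese libraries. CD34 and PTPRC overlapped between the groups, with ratios of 1.05 and 0.792 (Obese over Lean). The part of these differences in the results was not tested, and a mix of cell types and less 5hmC per cell cannot be told apart in bulk DNA. Because 5hmC over exons is not expression, these markers cannot identify the cells.

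Between Obese-MSCs and Lean-MSCs, 2 of the 92 potassium channel genes had low 5hmC and 0 had high 5hmC. Low 5hmC here means a ratio of group means of at most 0.7 together with p of 0.05 or below, unadjusted, in a two-sided test with equal variances, and high 5hmC means a ratio of at least 1.4 with the same limit on p. Both members with low 5hmC, KCND1 and KCNA10, were voltage-gated pore subunits of the broad group called Shaker-related here (KCNA, KCNB, KCNC and KCND). Over all genes 2.43% were low, 2.07% high and 4.5% either, beside 2.17% of members low and 2.17% either, so the members' shares were at or under the background. With the p-value alone, 5 members passed (5.43%) beside 6.04% of all genes. The groups did not overlap for 10 members (10.9%) beside 11.8% of all genes, with all Obese libraries above in 3 members and below in 7. limma, a linear model fitted to log2 values of all genes in the upper 80% by mean, called 0 of 70 members and 0 of 15147 genes (0%) after Benjamini-Hochberg adjustment, and 7 members (10%) beside 6.81% of all genes passed that limit before adjustment. Of these 7, KCNH6, KCNJ8 and KCNK4 were higher and KCND1, KCNA7, KCNH3 and KCNH7 lower in Obese. The smallest adjusted p-value of a member in limma was 0.583, and it ranged from 0.397 to 0.961 over the alternative settings.

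**Figure D1:**
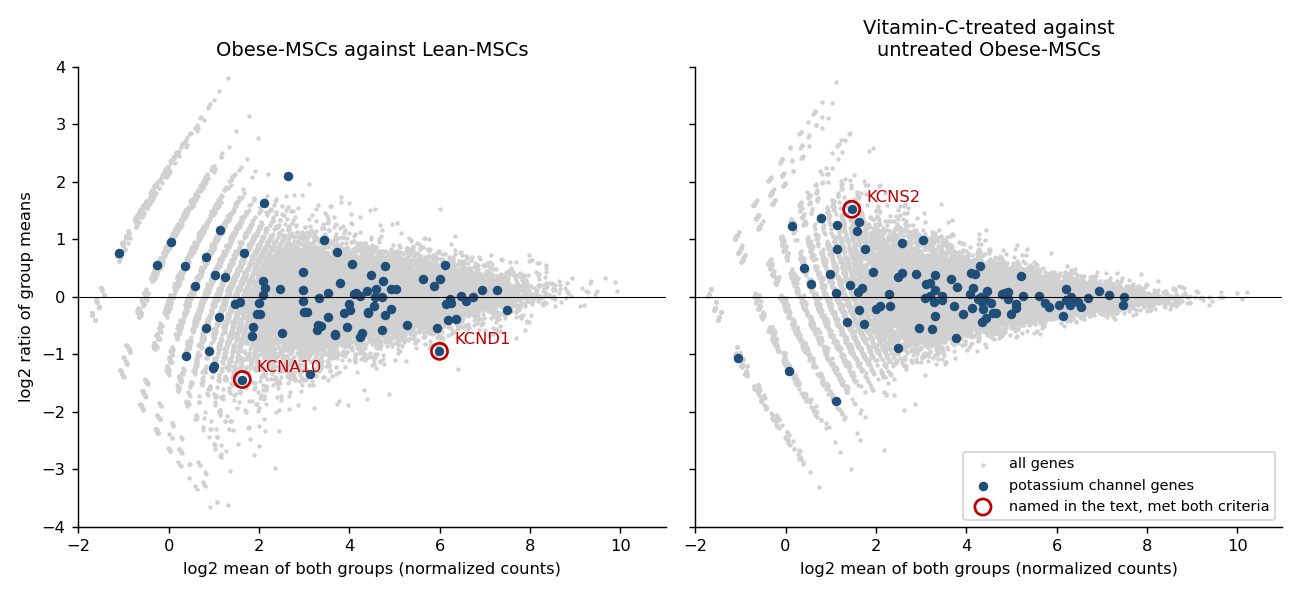
Each point is a gene, with the log2 mean signal of both groups (normalized counts) on the horizontal axis and the log2 ratio of group means on the vertical axis, Obese over Lean on the left and vitamin-C-treated over untreated on the right; grey points are all genes with a ratio, blue points the potassium channel genes, and red rings KCND1, KCNA10 and KCNS2, which met both criteria. Members lie within the spread of all genes at the same signal, and of the ringed members KCNA10 and KCNS2 lie at low signal and KCND1 does not.

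Across the members, the mean was higher in Obese for 41 and lower for 51, beside 9701 and 9232 of all 18933 genes. The median log2 ratio was -0.07, beside 0.01 for all genes. The ratio lay between 0.7 and 1.4 for 58 of 92 members, and for 35 of the 47 members in the upper 50% by mean. Over all genes it lay there for 13365 of 18933, and for 8115 of the 9467 in the upper 50%. Members were thus inside these limits less often than all genes, a difference that was not tested. Both group means were 3 or less for 16 members, beside 2517 of all genes. In the upper 50% the median coefficient of variation between libraries was 23.7% in Obese and 20.5% in Lean, beside 21.4% and 19.6% for all genes, and in the lower 50% it was 52.1% and 40.5%. The summed signal of all members was 2255, 2392 and 2224 in Obese and 2480, 2360 and 2401 in Lean libraries, a ratio of 0.949. These sums overlapped between the groups.

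**Figure D2:**
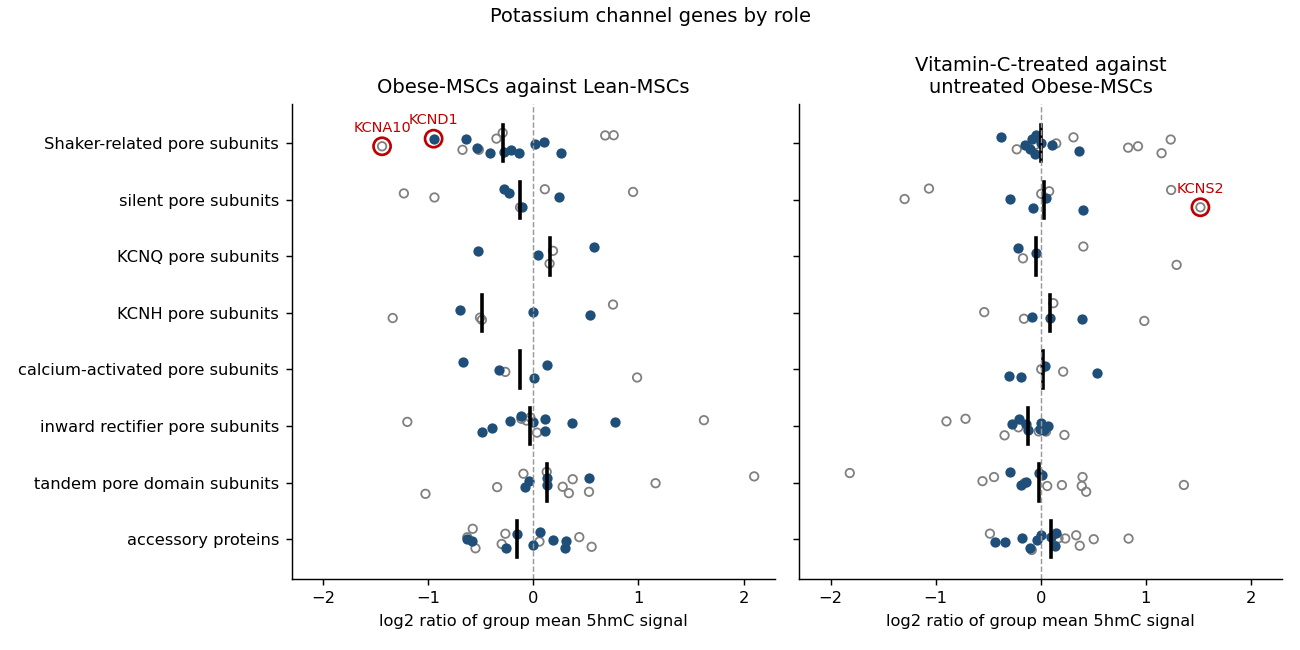
Each point is a potassium channel gene placed by its role (rows) and by the log2 ratio of its group means (horizontal axis), Obese over Lean on the left and vitamin-C-treated over untreated on the right; filled points are in the upper 50% by mean, open points below it, black bars are role medians, red rings mark KCND1, KCNA10 and KCNS2, which met the criteria, and KCNF1 has no point on the left because all Lean libraries are listed at 0. Role medians run from -0.49 (KCNH) to 0.15 (KCNQ) on the left and from -0.12 (inward rectifiers) to 0.10 (accessory proteins) on the right.

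The pore subunits called Shaker-related here (KCNA, KCNB, KCNC and KCND) are voltage-gated channels that repolarize excitable cells. Of the 17, 12 had the lower mean in Obese and 5 the higher, with a median log2 ratio of -0.29. Their summed signal was 426, 337 and 360.0 in Obese and 464, 468 and 510.3 in Lean libraries. All 3 Obese sums lay below all 3 Lean sums, at 374 ± 45.9 (SD, n = 3) and 481 ± 25.8 (SD, n = 3), a ratio of 0.779. Without KCND1 and KCNA10 the sums were 379, 291 and 318 in Obese and 390.0, 369 and 417 in Lean, which overlapped, and the ratio was 0.839. The sums of all other role groups overlapped between Obese and Lean libraries. No p-value is given for a sum over members, and this separation was not tested against the number of role groups looked at.

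KCND1 encodes the pore of a rapidly inactivating A-type potassium channel and lies on chromosome X from 43032355 to 43043310 (Sscrofa11.1), with no other annotated gene in its span. Its signal was 46.0, 45.5 and 39.0 normalized counts in Obese and 70.3, 93.3 and 88.3 in Lean libraries. Every Obese library lay below every Lean library, and the gap between the groups was wider than the range within the Obese group. The means were 43.5 ± 3.89 and 84.0 ± 12.1 (SD, n = 3 each), a ratio of 0.518 and a log2 ratio of -0.95, with an unadjusted p-value of 0.00527 and an exact permutation p-value of 0.1, the smallest that 3 libraries against 3 allow. KCND1 met the low criteria under all 13 alternative settings, and without any 1 library its log2 ratio lay between -1.06 and -0.87, but limma gave an adjusted p-value of 0.583. KCND2 and KCND3, which encode related A-type channels, did not meet the criteria. KCND2 had 37.0, 27.5 and 22.6 in Obese and 25.9, 20.8 and 25.7 in Lean, with overlap. KCND3 had 8.40, 12.4 and 9.47 in Obese and 16.9, 11.9 and 18.5 in Lean, also with overlap. Both were chosen after their values were seen.

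KCNA10 encodes a Shaker-related channel that also responds to cyclic nucleotides and lies on chromosome 4 from 109646024 to 109647699. Its signal was 0.677, 0.930 and 3.39 in Obese and 3.46, 4.97 and 5.13 in Lean libraries. The groups did not overlap, but Obese library 3 lay next to Lean library 7. The ratio was 0.369 and the log2 ratio -1.44, with an unadjusted p-value of 0.0484 and an exact permutation p-value of 0.1. The call held under 3 of 13 alternatives, and with the Obese mean raised to 3 the ratio was 0.664. KCNA10 was below the mean filter of limma.

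KCNA7, a Shaker-related channel known from heart and skeletal muscle, lies on chromosome 6 from 54276596 to 54283891, and its span overlaps that of NTF4, a neurotrophin gene, so reads of the pair may not be separable. Its signal was 50.5, 50.2 and 49.5 in Obese and 89.0, 59.6 and 69.9 in Lean libraries. The Obese values were nearly equal and all lay below the Lean values, which spread over a wide range. The ratio was 0.688, past the limit of 0.7, but the p-value was 0.0581 (exact permutation p = 0.1), so the criteria were missed. They were met in quantile-normalized values, in log2 values and without Lean library 8.

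KCNA3, the voltage-gated channel of lymphocytes, had 45.3, 28.4 and 10.1 in Obese and 30.6, 35.7 and 30.8 in Lean libraries. The Obese values enclosed the Lean values, and the ratio was 0.863 (exact permutation p = 0.7). KCNA2, which had the largest normalized count of the Shaker-related group without regard to length, had 77.5, 36.8 and 73.9 in Obese and 73.6, 76.4 and 99.6 in Lean libraries. These also overlapped, with Obese library 2 the lowest. KCNA3, KCNA2 and KCNA10 follow each other on chromosome 4 at distances of 36.4 kb and 75.9 kb, with log2 ratios of -0.21, -0.41 and -1.44.

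The electrically silent subunits (KCNF, KCNG, KCNS and KCNV) form no channel alone but join KCNB subunits and change their gating. Of the 10, 4 had the higher and 6 the lower mean in Obese, and 0 met the criteria. KCNG1, with the largest normalized count of the group, had 66.6, 77.8 and 75.3 in Obese and 71.4, 82.4 and 83.2 in Lean libraries. The groups overlapped and the ratio was 0.927. Both members of the group whose libraries did not overlap had low values and are named because of them. KCNS2 had 0.707, 1.91 and 1.20 in Obese and 2.28, 2.98 and 2.06 in Lean libraries (unadjusted p = 0.0584, exact permutation p = 0.1). KCNF1 had 0.775, 0.952 and 0.0240 in Obese and was listed at 0 in all Lean libraries.

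The KCNQ subunits carry slow voltage-gated currents that damp repeated firing in neurons and repolarize the heart. Of the 5, 4 had the higher mean in Obese, the median log2 ratio was 0.15, and 0 met the criteria.

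The KCNH subunits belong to the ether-à-go-go family, which includes the channel of cardiac repolarization KCNH2. Of the 7, 5 had the lower mean in Obese, the median log2 ratio was -0.49, and 0 met the criteria. KCNH6, with the largest normalized count of the group, had 93.6, 92.0 and 59.3 in Obese and 42.1, 68.5 and 57.5 in Lean libraries. Obese libraries 1 and 2 were above all Lean libraries and library 3 was inside their range. KCNH1, which is studied in dividing cells, had 6.84, 10.5 and 8.27 in Obese and 8.09, 13.9 and 14.4 in Lean libraries, with overlap. KCNH3, a brain channel named here because of its values, had 10.7, 2.79 and 1.396 in Obese and 11.4, 13.9 and 12.3 in Lean libraries. The groups did not overlap, but Obese library 1 lay close to the Lean libraries. Its ratio was 0.395 with an unadjusted p-value of 0.0640 (exact permutation p = 0.1), and limma gave 0.00650 before and 0.668 after adjustment.

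The calcium-activated pore subunits open when calcium rises inside the cell, except KCNU1, which belongs to the group by sequence and is known from sperm. Of the 6, 3 had the higher and 3 the lower mean in Obese, and 0 met the criteria or had groups that did not overlap. KCNMA1, the pore of the large-conductance channel, had 51.1, 102 and 115 in Obese and 82.6, 105 and 78.1 in Lean libraries. The Obese values spread on both sides of the Lean values, with a ratio of 1.01. KCNN4, the intermediate-conductance channel of blood and stromal cells, had 4.83, 12.3 and 26.3 in Obese and 5.74, 6.95 and 9.22 in Lean libraries. Its ratio was 1.98 with an exact permutation p-value of 0.4, and its log2 ratio was 0.99 with and 0.23 without Obese library 3.

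The inward rectifiers (KCNJ) pass potassium more easily into than out of the cell and hold the resting potential. Of the 15, 6 had the higher and 9 the lower mean in Obese, with a median log2 ratio of -0.03, and 0 met the criteria. KCNJ12, KCNJ16 and KCNJ6 passed the p-value but not the ratio. KCNJ12, a strong rectifier related to KCNJ2 whose span overlaps another protein-coding gene and a pseudogene, had 26.5, 25.6 and 23.6 in Obese and 18.1, 19.9 and 20.5 in Lean libraries. All Obese values were above all Lean values, with a ratio of 1.29, an unadjusted p-value of 0.00656 and an exact permutation p-value of 0.1. KCNJ16, which forms channels of kidney tubules with KCNJ10 and overlaps a long non-coding RNA gene, had 31.8, 28.4 and 36.3 in Obese and 44.1, 51.6 and 40.1 in Lean libraries. All Obese values were below all Lean values, with a ratio of 0.711, an unadjusted p-value of 0.0328 and an exact permutation p-value of 0.1. KCNJ6, a G protein-gated channel of neurons that overlaps a pseudogene and was chosen after its values were seen, had 65.1, 63.5 and 85.6 in Obese and 92.7, 96.3 and 92.4 in Lean libraries. The ratio was 0.761 (unadjusted p = 0.0359, exact permutation p = 0.1), and Obese library 3 was closest to the Lean libraries, which were nearly equal.

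**Figure D3:**
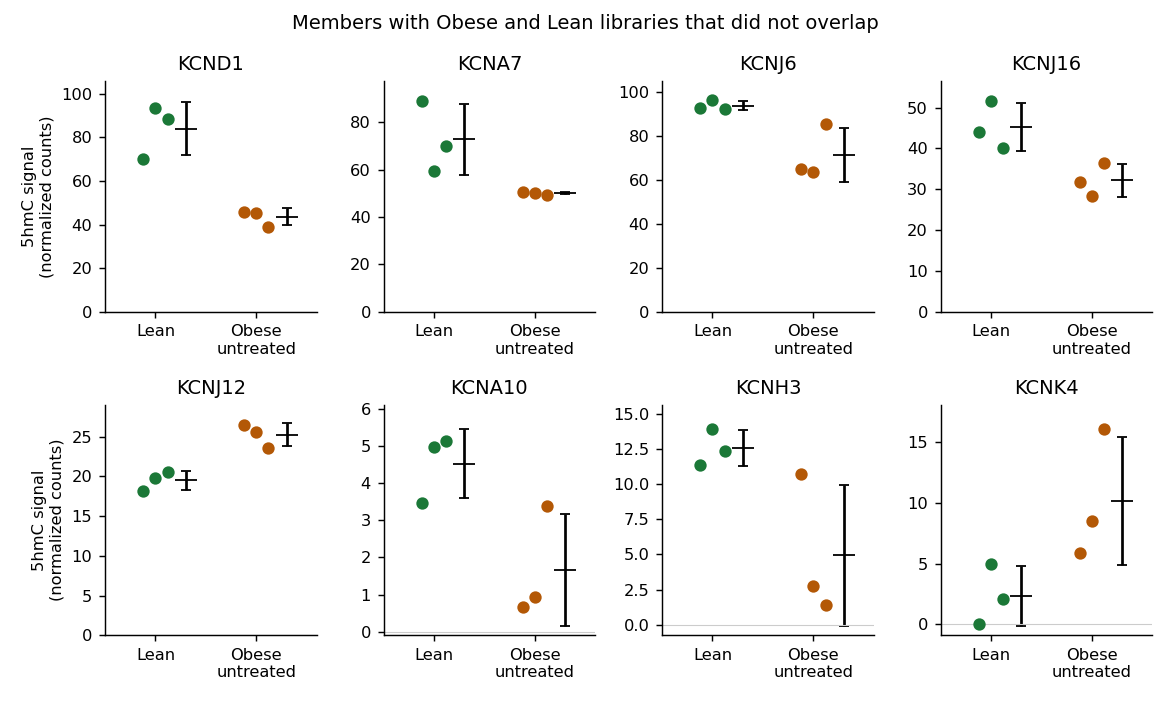
Each panel is a potassium channel gene whose Obese and Lean libraries did not overlap; points are the 5hmC signal of single libraries in normalized counts, and the horizontal bar with whiskers is the mean ± SD of 3 libraries. KCND1, KCNA7, KCNJ6, KCNJ16, KCNA10 and KCNH3 lie lower and KCNJ12 and KCNK4 higher in Obese, and KCNS2 and KCNF1, whose groups also did not overlap, are not drawn because all values were under 3.

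KCNJ2, which sets the resting potential in many cells, had 113, 192 and 178 in Obese and 188, 119 and 140 in Lean libraries, with overlap (exact permutation p = 0.9). It lies 12.5 kb from KCNJ16 on chromosome 12, and the log2 ratios of the neighbours were 0.11 and -0.49. KCNJ15, a kidney channel with the largest normalized count of the group, had 169, 148 and 181 in Obese and 249, 153 and 179.8 in Lean libraries. These overlapped, and Lean library 7 was the highest. The pores of the ATP-sensitive channels, KCNJ8 of vascular cells and KCNJ11 of the pancreas and muscle, both had low values. KCNJ8 had 5.31, 10.5 and 3.72 in Obese and 2.26, 0 and 4.08 in Lean libraries, which overlapped at Obese library 3. KCNJ11 had 5.55, 3.78 and 3.60 in Obese and 4.52, 2.97 and 5.13 in Lean libraries, with a ratio of 1.02.

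The tandem pore domain subunits (KCNK) carry background potassium current. Of the 15, 10 had the higher and 5 the lower mean in Obese, with a median log2 ratio of 0.13, and 0 met the criteria. KCNK2, a stretch-sensitive channel, had 61.8, 95.0 and 66.1 in Obese and 78.0, 89.4 and 61.7 in Lean libraries. KCNK12, a subunit that gives little current alone and had the largest normalized count of the group, had 76.5, 128 and 73.4 in Obese and 116, 99.3 and 79.1 in Lean libraries. Both overlapped, with ratios of 0.973 and 0.944. KCNK4, a relative of KCNK2 that also opens with membrane stretch, is named because of its values, and its span overlaps the gene CATSPERZ. It had 5.89, 8.50 and 16.1 in Obese and 0.0672, 4.97 and 2.06 in Lean libraries. Every Obese library lay above every Lean library, and the Obese libraries differed widely, with a ratio of 4.29, an unadjusted p-value of 0.0820 and an exact permutation p-value of 0.1. With the Lean mean raised to 3 the ratio was 3.38, and limma gave an adjusted p-value of 0.668.

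The accessory proteins (KCNAB, KCNE, KCNIP, KCNMB and KCNRG) form no pore. Of the 17, 7 had the higher and 10 the lower mean in Obese, with a median log2 ratio of -0.15, and 0 met the criteria or had groups that did not overlap. KCNAB2, a cytoplasmic subunit of Shaker-related channels with the largest normalized count of the group, had 86.6, 123 and 111 in Obese and 123, 134 and 64.8 in Lean libraries. The groups overlapped and the ratio was 0.996. KCNIP4, which binds KCND pores, had 13.0, 17.1 and 15.3 in Obese and 20.5, 13.9 and 35.9 in Lean libraries, and Lean library 9 stood above the rest. The subunits of the large-conductance channel, KCNMB1 to KCNMB4, had log2 ratios of -0.58, 0.44, -0.27 and -0.58 with overlapping groups. KCNIP4 and the KCNMB genes were chosen after their values were seen. The span of KCNMB1 overlaps that of KCNIP1, so their reads may not be separable.

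**Figure D4:**
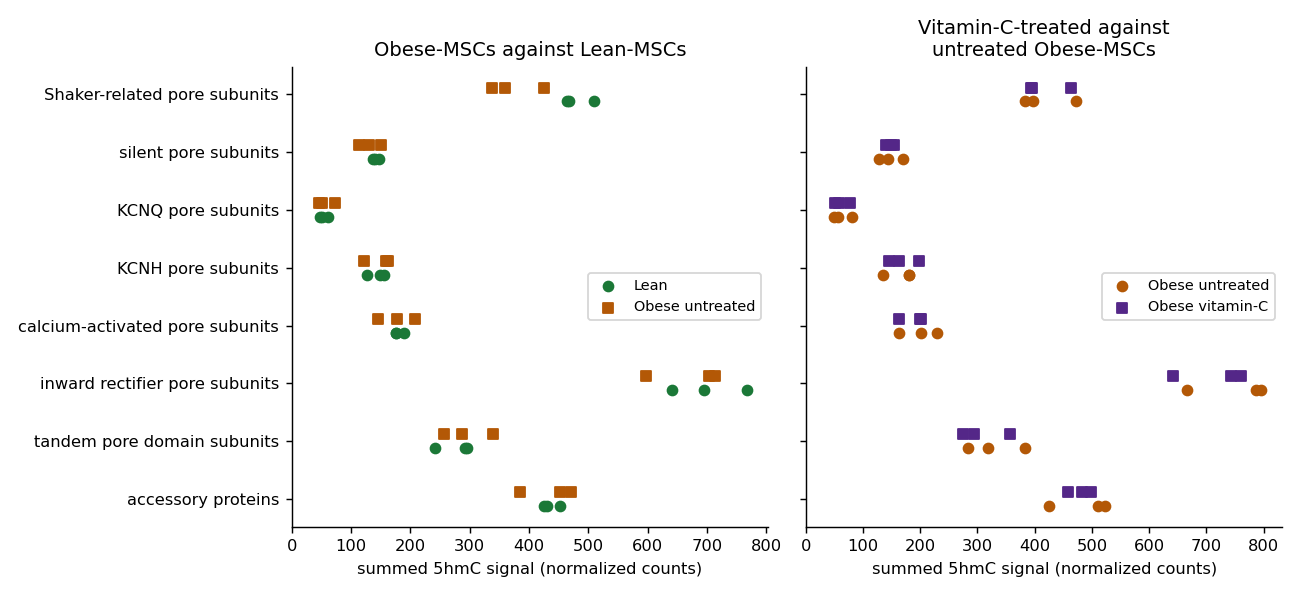
Points are the summed 5hmC signal (normalized counts, horizontal axis) of each role group (rows) in single libraries, Obese and Lean on the left and vitamin-C-treated and untreated Obese on the right. On the left the Shaker-related sums lie at 337 to 426 in Obese and 464 to 510.3 in Lean, and in all other role groups and in all role groups on the right the libraries overlap.

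Genes that partner potassium channels without a KCN symbol (sulfonylurea receptors, DPP6 and DPP10, BK-associated LRRC proteins, HCN channels and TMEM175) were 11. Of them, 1 was low, 0 were high and 2 had groups that did not overlap. The low gene was LRRC52, a gamma-type partner of the KCNU1 and KCNMA1 channels, with 1.57, 0.937 and 1.20 in Obese and 3.42, 3.97 and 4.11 in Lean libraries. These groups were apart from each other at low values, with a ratio of 0.322 (unadjusted p = 0.000732, exact permutation p = 0.1). Of 13 sodium channel genes 1 was low and 0 were high, and of 24 calcium channel genes 2 were high and 1 was low. The groups did not overlap for 2 sodium and 7 calcium channel genes. Over all genes 2.43% were low, 2.07% high and 11.8% had groups that did not overlap. These lists are short, and their counts were not tested against those shares. The median log2 ratios of the sodium and calcium channel genes were 0.11 and 0.02. They stand beside -0.07 for the potassium channel genes and 0.01 for all genes.

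With vitamin-C, 2 of the 92 potassium channel genes had high 5hmC and 0 had low 5hmC in treated over untreated Obese-MSCs. Among the members with high 5hmC was KCNS2, a silent subunit. Over all genes 1.11% were high, 0.806% low and 1.92% either, beside 2.17% of members high and 2.17% either, which is 2 genes. With the p-value alone, 2 members passed beside 2.64% of all genes. The groups did not overlap for 5 members (5.43%) beside 5.91% of all genes, with all treated libraries above in 4 and below in 1. limma called 0 of 69 members and 0 of 15194 genes (0%) after adjustment, with 1 member (1.45%) and 0.974% of all genes past that limit before adjustment, and the member was KCNH3. No member that met the criteria in this comparison met them in the diet comparison, and 4 members met them in either.

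The mean was higher in treated cells for 47 members and lower for 45, beside 9715 and 9277 of all 18992 genes. The median log2 ratio was 0.0027 for members and 0.0045 for all genes. The ratio lay between 0.7 and 1.4 for 73 of 92 members and for 43 of the 44 in the upper 50% by mean. Over all genes it lay there for 14872 of 18992, and for 9089 of the 9496 in the upper 50%. None of the 44 members had groups that did not overlap. Both group means were 3 or less for 11 members, beside 2249 of all genes. The summed signal of all members was 2498, 2566 and 2400.2 in treated and 2505, 2704 and 2449 in untreated libraries, a ratio of 0.975, with overlap. The member of these 44 outside the ratio limits was KCNN4, at 11.08, 20.3 and 38.9 in treated and 5.72, 14.0 and 28.7 in untreated libraries, with overlap. Endothelial marker genes summed to between 162 and 195 in treated and between 201 and 219 in untreated libraries, with no overlap, and the sums of the other marker lists overlapped. The part of this difference in the results was not tested.

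KCNS2 lies on chromosome 4 from 38362882 to 38374415, and its span overlaps that of a long non-coding RNA gene, so reads of the pair may not be separable. Its signal was 5.03, 3.69 and 3.55 in treated libraries and 0.821, 2.13 and 1.33 in untreated libraries. Every treated library lay above every untreated library. The ratio was 2.87 and the log2 ratio 1.52, between 1.24 and 1.93 without any 1 library, with an unadjusted p-value of 0.0118 and an exact permutation p-value of 0.1. The call held under 10 of 13 alternatives, among them all 6 that left out 1 library, and KCNS2 was below the mean filter of limma. With the untreated mean raised to 3, the ratio was 1.36. Its value of 5.03 in library 4 was shared within 0.01 by 762 other genes, since low values in a library take a limited set of levels.

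**Figure D5:**
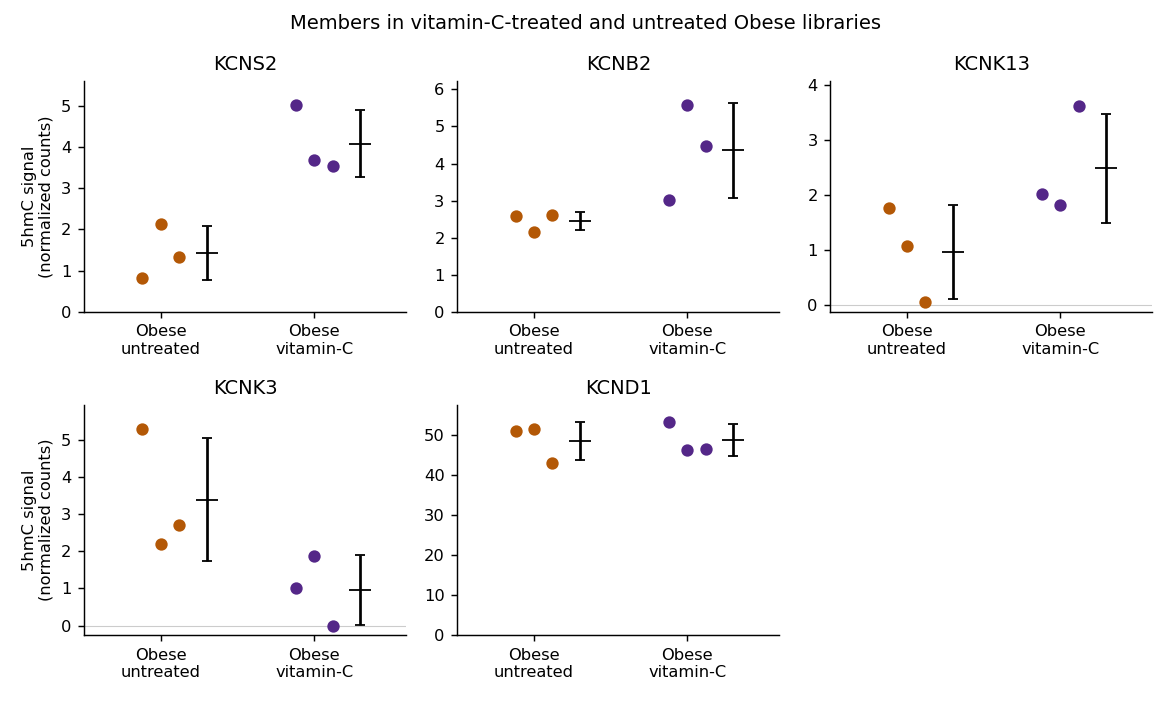
Each panel is a potassium channel gene in vitamin-C-treated and untreated Obese libraries; points are the 5hmC signal of single libraries in normalized counts, and the horizontal bar with whiskers is the mean ± SD of 3 libraries. KCNS2, KCNB2 and KCNK13 lie higher and KCNK3 lower in treated cells, with all values under 6, and KCND1 lies at 46.3 to 53.3 in treated and 43.0 to 51.5 in untreated libraries.

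KCNB2, KCNK13 and KCNK3, whose groups also did not overlap, had low values and are named because of them. KCNB2, a delayed rectifier pore that silent subunits join, had 3.02, 5.59 and 4.47 in treated and 2.59, 2.16 and 2.60 in untreated libraries. KCNK13, a tandem pore domain subunit, had 2.01, 1.82 and 3.63 in treated and 1.77, 1.08 and 0.0604 in untreated libraries. KCNK3, an acid-sensitive background channel, had 1.01, 1.88 and 0 in treated and 5.29, 2.19 and 2.70 in untreated libraries. None of these 3 met the criteria, with unadjusted p-values of 0.0650, 0.115 and 0.0925 and an exact permutation p-value of 0.1 for each.

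No role group had sums that did not overlap with vitamin-C, and the median log2 ratios of the role groups lay between -0.12 for the inward rectifiers, of which 5 had the higher and 10 the lower mean in treated cells, and 0.10 for the accessory proteins, of which 10 had the higher and 7 the lower. The Shaker-related sum was 464, 395 and 394 in treated and 471, 382 and 397 in untreated libraries, with overlap. KCNMA1 had 60.4, 109 and 92.2 in treated and 57.5, 115 and 126 in untreated libraries, KCNJ2 170.0, 216 and 153 against 126, 217 and 195, and KCNK2 86.5, 90.8 and 49.0 against 68.9, 107 and 72.8. All 3 overlapped. Of the 11 partner genes 1 was high and 0 were low. The high gene was LRRC52, with 6.03, 4.602 and 5.36 in treated and 1.74, 1.09 and 1.33 in untreated libraries. LRRC52 was also the low gene of the diet comparison. Both calls rest on the same untreated Obese libraries at low values, so they are not independent. Of 13 sodium channel genes 1 was low and 0 were high, and of 24 calcium channel genes 0 met the criteria. Over all genes 1.11% were high and 0.806% low with vitamin-C, and the counts of these short lists were not tested against those shares.

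Both comparisons share the untreated Obese libraries, which are the numerator of the ratio in the diet comparison and the denominator in the vitamin-C comparison, so the ratios of a member are not independent and are given here only side by side. KCND1, at a log2 ratio of -0.95 in Obese over Lean, had 53.3, 46.3 and 46.5 in treated and 51.01, 51.5 and 43.0 in untreated libraries, a log2 ratio of 0.01 with overlapping groups. KCNA10 had a log2 ratio of -1.44 in the diet comparison, and in the vitamin-C comparison 5.03, 5.60 and 1.69 in treated and 0.802, 1.097 and 3.65 in untreated libraries, which overlapped, with a log2 ratio of 1.15. KCNS2 had log2 ratios of -0.94 and 1.52. KCNA7 had -0.54 and -0.10, KCNJ16 had -0.49 and -0.12, KCNJ12 had 0.37 and 0.07, and KCNN4 had 0.99 and 0.54. KCNH3, chosen after its values were seen, had -1.34 and 0.99, with 8.05, 10.2 and 14.4 in treated and 11.6, 3.284 and 1.65 in untreated libraries. The treated values of KCNH3 overlapped the untreated ones at library 1.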

How the data were processed

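DNA of 9 MSC cultures was enriched for 5hmC and sequenced. Per the labels and the methods of the study, the authors aligned reads with Bowtie2 2.3.3.1 to susScr 11.1, removed duplicates with Picard 1.67, counted reads over exons with htseq-count 0.9.1 and processed the counts with edgeR 3.28.1. The deposited values are a normalized read signal per gene, fractional and never negative, and the normalization step is not given in the sources used here. Sequencing depth is therefore unknown, and no counting interval is given. The 2 tables were normalized separately, so each comparison was made within its table. Residual values next to 0 in the vitamin-C data, 645 in all, were replaced by 0.

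Groups were taken from the labels. Nothing in the labels says which treated and untreated cultures share an animal, so overlap between their values takes no account of pairs, and p-values measure only the spread between these cultures. The criteria were the study's own thresholds, run on every gene. In the diet comparison they called 391 genes high and 461 low, fewer in each direction than the study reported. The calls given here are therefore not the study's own calls, and the reason for the difference was not tested. limma 3.58.1 (R 4.3.3) was fitted with a variance trend to log2(value + 1) over the upper 80% of genes by mean, with Benjamini-Hochberg adjustment at 0.05, and a two-sided exact permutation test ran over 20 arrangements. Log2 ratios are of group means, with no pseudocount. Python 3.11.15, numpy 2.4.6, pandas 2.3.3, scipy 1.17.1 and matplotlib 3.10.9 were used. Positions are those of RefSeq for Sscrofa11.1, where all 92 symbols matched. Exon lengths were not used here, so levels were not compared between genes.

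The members and lists were chosen with earlier results of these data known. Members named are those that met the criteria in either comparison or were called by limma, the 3 highest and 3 lowest ratios among members of the upper 50% by mean whose groups did not overlap, the member with the largest mean of each role group, and KCNMA1, KCNN4, KCNH1, KCNA3, KCNJ2, KCNJ8, KCNJ11 and KCNK2, 22 in all. Others, KCNJ6, KCNH7 and the neighbour pairs of the closing section among them, were chosen after their values were seen. Values of 2 of the 22 are not reported here. The scripts were tested on simulated data, with 3-fold changes planted only among the upper 50% of genes by mean. Calls at low signal were therefore not covered. The criteria also called 626 genes without a planted change in the simulated diet comparison and 738 in the simulated vitamin-C comparison.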

Additional observations from a re-analysis of the deposited data

How the results depend on the processing

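No pairs could be set from the labels, which number the libraries from 1 to 9 with no number shared between groups. The study cultured Obese-MSCs with or without vitamin-C, so treated and untreated cultures may share animals. The vitamin-C results above take no account of such pairs. As a hint from the data and not from the design, treated libraries 4, 5 and 6 deviated from their group mean together with untreated libraries 1, 2 and 3 (correlations of 0.394, 0.530 and 0.276 across 9496 genes, and below 0 for all other combinations). With these pairs as a replicate block, an alternative added after the data were seen, limma called 0 of 69 members and 0 of 15194 genes, with 1 member and 372 genes at p of 0.05 or below before adjustment. The member was KCNH3, with an unadjusted p-value of 0.0319 in that limma fit. KCNN4, KCNAB1 and KCNK4 are named here because of their values. KCNN4, higher in each treated library of these pairs, had an unadjusted p-value of 0.0597 in the same fit. KCNAB1 and KCNK4, lower in each, had 0.0808 and 0.142. Other members also went the same way in every pair. In the same fit KCND2 and KCNE4, higher in each, had 0.128 and 0.502, and KCNK10, lower in each, had 0.403. The share of members or of all genes that did so was not counted. The pairs were set by the same data, so these p-values are descriptive. In the diet comparison the count of members with low 5hmC (2) was 4 in quantile-normalized values (KCND1, KCNA10, KCNA7 and KCNJ16) and 1 (KCND1) with a p-value threshold of 0.01, with unequal variances, and among genes of the upper 80% or the upper 50% by mean. Leaving out 1 library gave 2 to 5 members with low and 0 to 3 with high 5hmC. The count was 4 without Obese library 2 or 3 and 5 without Lean library 8. In the vitamin-C comparison the count with high 5hmC (2) was 0 at a threshold of 0.01 and among genes of the upper 80% or upper 50% by mean. Leaving out 1 library gave 1 to 4 members with high and 0 to 1 with low 5hmC. The count was 4 without treated library 4 and 1 (KCNS2) without treated library 5 or 6 or untreated library 2 or 3. limma called 0 members under every alternative with adjusted p-values, and without adjustment 7 and 1. The median log2 ratio lay between -0.12 and -0.02 in the diet comparison and between -0.037 and 0.056 in the vitamin-C comparison without 1 library. Of 396 log2 ratios of named members under alternatives, 396 moved by less than 1 SD. That SD combines the spread of single libraries in both groups, so leaving out 1 library could hardly exceed it. The count therefore does not measure robustness. Without 1 library in the diet comparison, KCNN4 moved from 0.99 to as low as 0.23. KCNA3 moved from -0.21 to as high as 0.19. The cause of the changes was not tested.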

Other observations

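The 92 potassium channel genes were spread over 18 chromosomes, with 13 on chromosome 4, 9 on chromosome 6 and 2 on chromosome X. The span of 29 of them overlapped that of another annotated gene. Across the members, mean signal and gene span had a Spearman correlation of 0.229 (n = 92 genes of the same libraries, a description without a test). Neighbours moved apart in some pairs and alike in others. KCNJ1 and KCNJ5, 24 kb apart on chromosome 9, had log2 ratios of 0.78 and -0.11 in Obese over Lean. KCNE2 and KCNE1, 70.3 kb apart on chromosome 13, had -0.55 and -0.63, both lower in Obese. Signal was low for KCNE2 (means of 1.43 in Obese and 2.09 in Lean) and for KCNJ5 (3.86 and 4.18). In the table with vitamin-C the same untreated Obese libraries had values of members 1.11, 1.13 and 1.101 times those in the other table (median over members above 3, libraries 1, 2 and 3), and the tables were normalized separately.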
